A study of Rattus norvegicus with 8 samples.

Results

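The genes Tgfb1, Ccn2 (also called Ctgf), Postn and Fn1, of transforming growth factor beta (TGF-beta) signalling and the fibrotic matrix, were followed in RNA sequencing of rat heart. They were chosen by their Ensembl gene IDs, ENSRNOG00000020652 for Tgfb1, ENSRNOG00000015036 for Ccn2, ENSRNOG00000012660 for Postn and ENSRNOG00000014288 for Fn1, and make up 4 of the 21549 genes in the files. The deposited tables list IDs without names, so the symbols are those given with the definition of this gene set. All 4 IDs were present and all 4 passed the filter on low counts, which left 14214 genes to test. The hearts came from Sprague Dawley rats, an outbred laboratory strain, aged 3 months, with 4 rats kept in chronic hypoxia and 4 in normoxia and 1 library per rat. The sources used here do not state the oxygen level, how long the exposure lasted, the sex of the rats or which part of the heart was taken. The design asks how a sustained lack of oxygen changes cardiac gene expression.

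Tgfb1 encodes the cytokine TGF-beta 1, which is secreted in a latent form held in the matrix and, once released, signals through serine/threonine kinase receptors to Smad transcription factors. In the heart this pathway is best known for turning fibroblasts into matrix-producing myofibroblasts. Ccn2 encodes connective tissue growth factor and Postn encodes periostin, a pair of matricellular proteins, that is, secreted proteins that act on cells from within the matrix rather than serving as its scaffold. Fn1 encodes fibronectin, the glycoprotein onto which new matrix is assembled and to which cells attach through integrins.

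Promoter windows from RefSeq (build GRCr8, 250 bases before to 50 after the gene start) were matched by symbol for 3 of the 4 genes, Tgfb1, Ccn2 and Postn. The count files were made on build rn6, per the submitters' processing notes, and no coordinate was carried between the builds. The windows of the 2 matricellular genes are shown because they differ in the letters of TEAD sites, the DNA motif read by the partners of YAP and TAZ. Capitals mark matches on either strand. The motif searched for TEAD was GGAATG. The motif for a Smad-binding element was CAGAC. The core of a hypoxia response element was taken as ACGTG alone, and its other form, GCGTG, was not searched. The motif for a TATA box was TATAAA. The first is chr1:22624565-22624864 on the minus strand and the other is chr2:140677811-140678110 on the plus strand, both written 5′ to 3′ along the gene.
Ccn2: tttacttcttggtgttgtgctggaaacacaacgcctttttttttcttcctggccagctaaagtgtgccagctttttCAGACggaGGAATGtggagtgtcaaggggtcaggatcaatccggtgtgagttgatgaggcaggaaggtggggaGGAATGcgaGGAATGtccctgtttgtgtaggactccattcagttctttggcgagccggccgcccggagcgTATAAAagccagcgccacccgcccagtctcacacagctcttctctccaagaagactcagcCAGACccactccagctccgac
Postn: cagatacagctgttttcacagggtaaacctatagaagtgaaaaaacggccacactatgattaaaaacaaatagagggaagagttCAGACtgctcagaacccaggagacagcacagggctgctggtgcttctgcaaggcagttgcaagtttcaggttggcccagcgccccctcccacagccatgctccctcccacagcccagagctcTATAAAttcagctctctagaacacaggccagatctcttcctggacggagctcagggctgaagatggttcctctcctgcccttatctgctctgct
The Ccn2 window held 3 matches to GGAATG, beginning at −166, −101 and −92 from the gene start, against 0 in Postn and 0 in Tgfb1. Of 33469 rat promoter windows of this length, 14.2% held that motif. CAGAC was found 2 times in Ccn2, at −174 and +30, and 1 time in Postn, at −166, but 50.1% of all windows held it. TATAAA was found 1 time in each, at −31 in Ccn2 and −44 in Postn, against 14.2% of all windows. ACGTG had 0 matches in the 3 windows and was held by 19.3% of all windows, which leaves the GCGTG form of that core uncounted in both. In Tgfb1 there was no match to any of the 4 motifs as searched, and none of the matches in the other windows shows that a factor binds.

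Library totals ran from 26229304 to 32160710 counts. The files pair no ID with a name, so none of the 12 lists of pathway genes and cell type markers could be read and the heart label was not checked against cardiomyocyte markers. The first principal component of log2 CPM (counts per 1000000 of the scaled library size), with 49.0% of the variance, separated the groups, and the second, with 20.9%, separated hypoxic hearts from one another. Hypoxia libraries 1 and 2 lay at −37.9 and −29.8 on it and hypoxia libraries 3 and 4 at 29.3 and 27.9, with the normoxia libraries between −1.01 and 8.10. Each change below is therefore also given without either pair. Those pairs were told apart by expression in these data, so such values describe the libraries that are left and are no test of the exposure.

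Fn1 was the 1 gene of the 4 that rose in chronic hypoxia, by 1.74-fold. Postn, Ccn2 and Tgfb1 had higher means in hypoxia, but none passed the test. Postn was high in 2 of the 4 hypoxic hearts, and Tgfb1 and Ccn2 were highest in the other two. A call of 1 of 4 genes stands beside a background of 33.0% of all tested genes called in either direction and 17.7% called higher (edgeR quasi-likelihood test, adjusted p under 0.05). In whole tissue, a change in the number of cells of a type and a change in RNA per cell cannot be told apart.

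**Figure D1:**
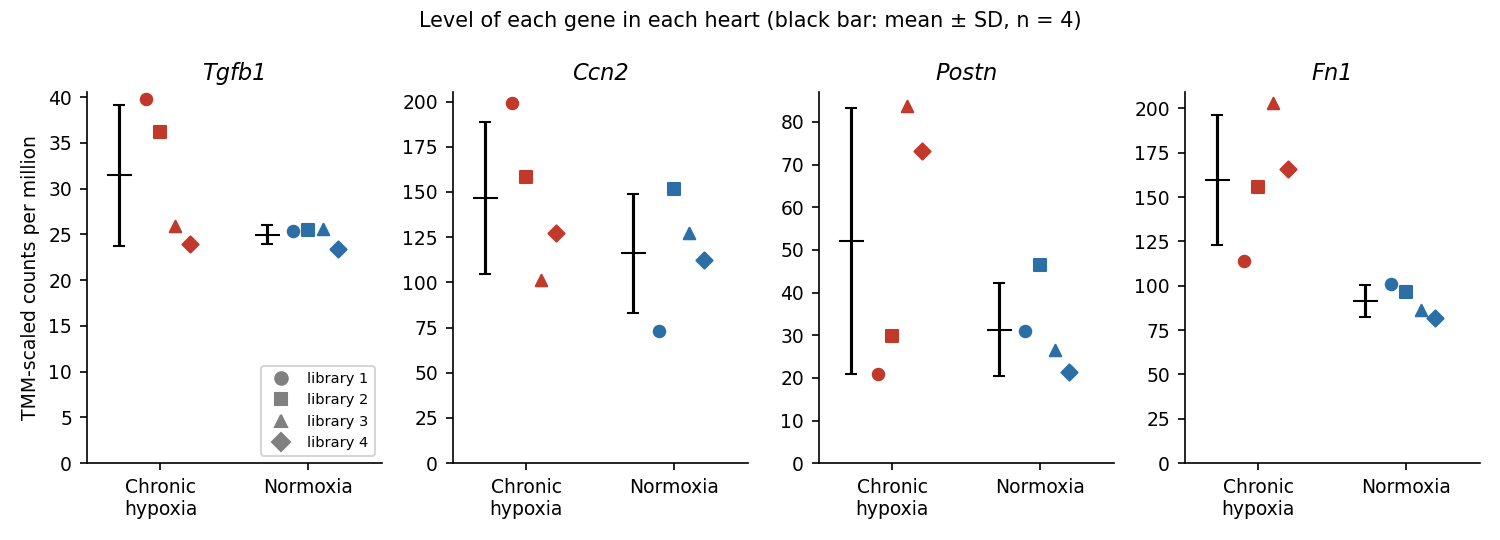
TMM-scaled CPM of each gene in each library, on linear axes from 0, with chronic hypoxia (red) left of normoxia (blue). Symbols mark the library number, which was not taken to pair rats between groups, and black bars give the mean ± SD of 4 libraries. The groups separate for Fn1 alone, whose lowest hypoxic heart is at 114 CPM against 101 CPM in the highest normoxic heart.

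Fn1, with a gene model of 8406 bp, stood at 114, 156, 203 and 166 CPM in hypoxia libraries 1 to 4, against 101, 96.3, 86.4 and 82.1 CPM in normoxia libraries 1 to 4, where CPM values follow scaling of the libraries by TMM, the trimmed mean of M values. Every hypoxic heart was above every normoxic heart, by a wide margin in libraries 2 to 4 and a narrow one in library 1. A rise without overlap was also seen in 17.3% of all tested genes. The mean was 160 ± 36.8 CPM in hypoxia and 91.5 ± 8.83 CPM in normoxia (SD, n = 4 each). The log2 fold change was 0.80 (SE 0.16, 95% interval 0.45 to 1.15, edgeR adjusted p = 0.00460), higher than in 92.7% of the tested genes. The size depended on the hypoxic hearts: it was 1.00 without hypoxia libraries 1 and 2 (edgeR adjusted p = 2.07e-04) and 0.55 without hypoxia libraries 3 and 4 (edgeR adjusted p = 0.0104). The separation also held in the deposited FPKM values, which use library totals, where the lowest hypoxic heart had 13.3 FPKM and the highest normoxic heart 12.9 FPKM.

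Postn, with a gene model of 3229 bp, stood at 21.0, 29.9, 83.9 and 73.2 CPM in hypoxia libraries 1 to 4, against 31.0, 46.5, 26.4 and 21.4 CPM in normoxia libraries 1 to 4. Hypoxia libraries 3 and 4 were above all normoxic hearts, hypoxia library 2 was inside the normoxic range and hypoxia library 1 was just below it. The means of 52.0 ± 31.2 CPM in hypoxia and 31.3 ± 10.9 CPM in normoxia (SD, n = 4 each) gave a log2 fold change of 0.73 (SE 0.42, 95% interval −0.20 to 1.66, edgeR adjusted p = 0.203). In this edgeR fit its fold change was close in size to that of Fn1, with an SE of 0.42 against 0.16. The closeness was less in an alternative fit with limma-voom, which gave 0.56 for Postn and 0.78 for Fn1. Without hypoxia libraries 1 and 2 the log2 fold change was 1.32 (edgeR adjusted p = 0.00271), and without hypoxia libraries 3 and 4 it was −0.31 (edgeR adjusted p = 0.411).

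Postn was also one of the most variable genes of the dataset. The SD of its log2 CPM was 0.97 in hypoxia and 0.47 in normoxia, larger than that of 97.2% of the tested genes in hypoxia and of 93.7% in normoxia. The highest hypoxic heart had 4.00 times the CPM of the lowest, against 2.17 times in normoxia. Periostin is a product of activated fibroblasts in the injured adult heart, and the markers of those cells could not be read here, so their part in this spread was not tested.

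Ccn2, with a gene model of 2712 bp, stood at 199, 158, 101 and 127 CPM in hypoxia libraries 1 to 4, against 73.2, 151, 127 and 112 CPM in normoxia libraries 1 to 4. The groups overlapped: hypoxia libraries 1 and 2 were above all normoxic hearts, and hypoxia libraries 3 and 4 were inside the normoxic range. In deposited FPKM only hypoxia library 1, at 71.9, was above every normoxic heart, as hypoxia library 2 had 52.4 against 60.4 in normoxia library 2. The means of 146 ± 42.1 CPM in hypoxia and 116 ± 32.8 CPM in normoxia (SD, n = 4 each) gave a log2 fold change of 0.34 (SE 0.24, 95% interval −0.20 to 0.87, edgeR adjusted p = 0.311). That interval spans folds from 0.870 to 1.83, so it excludes neither a small fall nor a rise of the size seen in Fn1. Normoxia library 1 was the lowest of all 8, and without it the log2 fold change was 0.17 (edgeR adjusted p = 0.602). Scaling by library totals alone gave 0.16 (edgeR adjusted p = 0.627). The value was −0.03 without hypoxia libraries 1 and 2 (edgeR adjusted p = 0.930) and 0.61 without hypoxia libraries 3 and 4 (edgeR adjusted p = 0.0620).

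Tgfb1, with a gene model of 2140 bp, stood at 39.7, 36.2, 26.0 and 24.0 CPM in hypoxia libraries 1 to 4, against 25.4, 25.5, 25.6 and 23.4 CPM in normoxia libraries 1 to 4. The ligand was nearly the same in all normoxic hearts, clearly above them in hypoxia libraries 1 and 2, just above the highest of them in hypoxia library 3 and inside their range in hypoxia library 4. The means of 31.5 ± 7.69 CPM in hypoxia and 24.98 ± 1.04 CPM in normoxia (SD, n = 4 each) gave a log2 fold change of 0.33 (SE 0.15, 95% interval −0.01 to 0.68, edgeR adjusted p = 0.120). Leaving out hypoxia library 4 alone gave 0.44 (edgeR adjusted p = 0.0369), past the threshold, and leaving out hypoxia library 1 alone gave 0.20 (edgeR adjusted p = 0.302). Scaling by library totals alone gave 0.16 (edgeR adjusted p = 0.461), and in deposited FPKM 2 hypoxic hearts in place of 3 were above every normoxic heart. Without hypoxia libraries 3 and 4 the value was 0.60 (edgeR adjusted p = 6.59e-04), and without hypoxia libraries 1 and 2 it was −0.01 (edgeR adjusted p = 0.936).

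**Figure D2:**
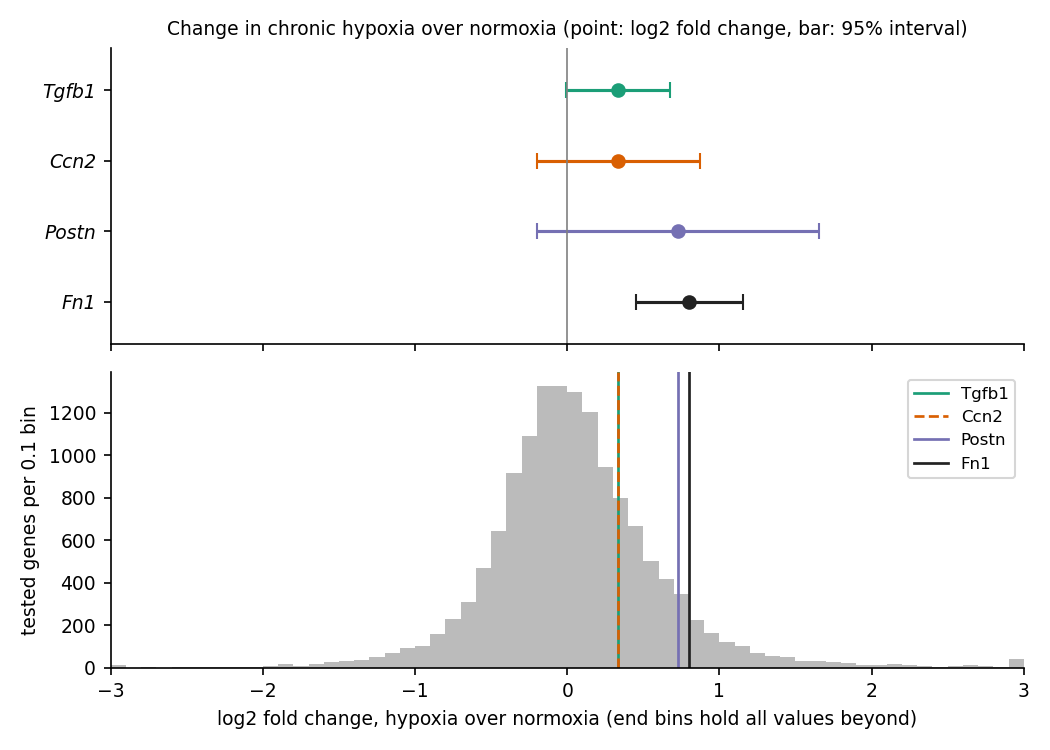
Upper panel, log2 fold change of hypoxia over normoxia for the 4 genes, with 95% intervals from edgeR, of which that of Fn1 (0.45 to 1.15) lies above 0. Lower panel, number of tested genes per 0.1 of log2 fold change, with the 4 genes as vertical lines; Tgfb1 (0.33) and Ccn2 (0.34) nearly coincide.

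The spread between hearts differed between the genes. The SD of log2 CPM of Tgfb1 was 0.36 in hypoxia and 0.06 in normoxia, 5.82 times as large, and in normoxia only 15.1% of tested genes had a smaller SD. For Fn1 it was 0.35 in hypoxia and 0.14 in normoxia. Ccn2 was the exception, with 0.42 in hypoxia and 0.45 in normoxia, where 92.9% of tested genes varied less. A larger SD in hypoxia, found in 3 of the 4 genes, was the rule in these libraries: 78.7% of tested genes had it, and the median SD was 0.23 in hypoxia and 0.13 in normoxia.

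Seen heart by heart, the genes did not move as a block. Against the normoxia mean of log2 CPM, hypoxia library 1 had Ccn2 higher by 0.83, Tgfb1 by 0.67 and Fn1 by 0.32, with Postn at −0.52. Hypoxia library 2 had Fn1 higher by 0.77, Tgfb1 by 0.54 and Ccn2 by 0.50, with Postn at −0.01. About that mean the normoxic hearts themselves ran from −0.62 to 0.43 for Ccn2 and from −0.49 to 0.63 for Postn. They ran from −0.15 to 0.15 for Fn1 and from −0.09 to 0.04 for Tgfb1. In hypoxia libraries 1 and 2 the ligand and connective tissue growth factor stood above the normoxia mean and periostin did not.

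The other two hypoxic hearts differed from these mainly in Postn, with Tgfb1 and Ccn2 near the normoxia mean. Hypoxia library 3 had Postn higher by 1.48 and Fn1 by 1.16, with Tgfb1 at 0.06 and Ccn2 at −0.15. Hypoxia library 4 had Postn higher by 1.28 and Fn1 by 0.86, with Ccn2 at 0.18 and Tgfb1 at −0.06. Fibronectin was thus the 1 transcript above the normoxia mean in each hypoxic heart by more than 0.3 on the log2 scale. Library totals were 29083620 and 32160710 counts in hypoxia libraries 1 and 2 and 26229304 and 31148137 in hypoxia libraries 3 and 4.

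**Figure D3:**
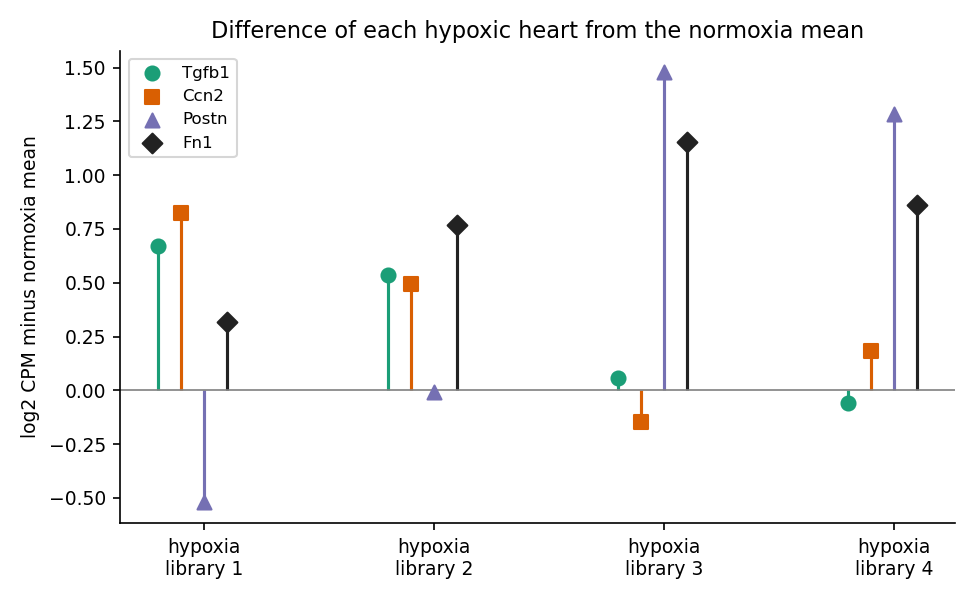
Difference in log2 CPM between each hypoxic heart and the mean of the 4 normoxic hearts, for the 4 genes. Hypoxia libraries 1 and 2 show Tgfb1 and Ccn2 above 0 with Postn at −0.52 and −0.01. Hypoxia libraries 3 and 4 show Postn at 1.48 and 1.28 with Tgfb1 near 0.

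Per length, Ccn2 was the most abundant transcript of the 4 in 8 of 8 libraries. In FPKM (the authors' values per length of gene and per library total), it averaged 50.9 ± 15.4 in hypoxia and 45.5 ± 13.2 in normoxia (SD, n = 4 each), above 93.0% of the tested genes in hypoxia and 92.0% in normoxia. Its lowest library, at 28.9 FPKM in normoxia, was above the highest value of any of the other 3, 25.8 FPKM for Postn in hypoxia library 3. Fn1 followed in hypoxia at 17.9 ± 4.51 FPKM, then Postn at 15.2 ± 9.39 and Tgfb1 at 13.9 ± 3.59. In normoxia the order below Ccn2 was Tgfb1 at 12.4 ± 0.774 FPKM, Fn1 at 11.6 ± 1.31 and Postn at 10.4 ± 3.76. Within either group the ranges of these 3 overlapped, so their order was not resolved. Postn showed this most plainly, as it was second of the 4 in hypoxia libraries 3 and 4 and in normoxia library 2, and last in the other 5 libraries.

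Ratios of 2 genes within a library do not depend on how libraries are scaled, and they asked whether the genes changed unequally. The log2 ratio of Fn1 to Tgfb1, in counts per length, was −0.46, 0.13, 1.00 and 0.81 in hypoxia libraries 1 to 4, against 0.02, −0.06, −0.22 and −0.16 in normoxia libraries 1 to 4. In this ratio 3 hypoxic hearts lay above every normoxic heart and hypoxia library 1 lay below every one. The means of 0.37 ± 0.67 in hypoxia and −0.10 ± 0.11 in normoxia did not differ beyond the spread (n = 4 each, two-sided exact permutation p = 0.286, adjusted 0.886 over 6 pairs of genes). Although Fn1 passed the test and Tgfb1 did not, a difference between their changes was not shown by this test, which has little power here.

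The ratios of Postn to Tgfb1 and to Ccn2 varied most between hypoxic hearts. The log2 ratio of Postn to Tgfb1 was −1.52, −0.87, 1.10 and 1.02 in hypoxia libraries 1 to 4, against −0.31, 0.27, −0.55 and −0.72 in normoxia libraries 1 to 4. The 4 hypoxic hearts lay outside the normoxic range, 2 above it and 2 below it, and the group means differed by 0.26 (n = 4 each, exact permutation p = 0.743, adjusted 0.886). Postn to Ccn2 had the same arrangement, with −3.50, −2.66, −0.52 and −1.05 in hypoxia libraries 1 to 4 and −2.64 to −1.49 in normoxia (adjusted exact permutation p = 0.886).

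Ccn2 to Tgfb1 was the steadiest ratio among the hypoxic hearts, at 1.62 to 2.07 on the log2 scale, against 1.19 to 2.23 in normoxia. Its mean was 1.86 ± 0.20 in hypoxia and 1.83 ± 0.45 in normoxia (n = 4 each, exact permutation p = 0.886, adjusted 0.886). Fn1 to Ccn2 differed by 0.44 and Fn1 to Postn by 0.22 between the groups (exact permutation p = 0.371 and 0.543, both adjusted to 0.886). With 4 hearts a side the smallest p this test can give is 0.0286, reached when the groups do not overlap, and 1 ratio alone at that p would be adjusted to 0.171. No single ratio could therefore have passed, and the adjusted values say little about whether the genes changed alike.

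**Figure D4:**
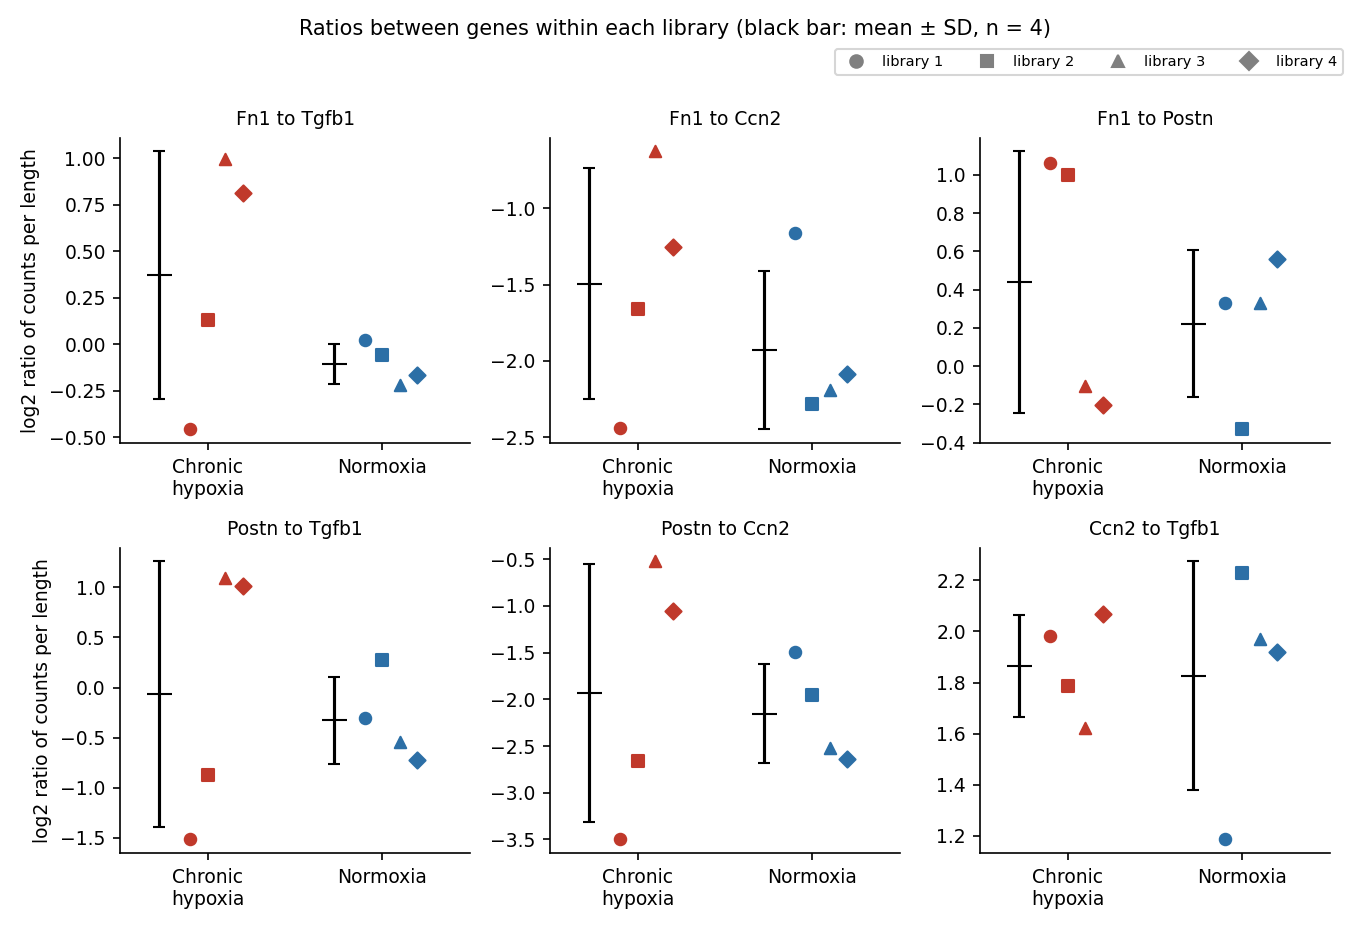
Log2 ratios of counts per length between each pair of the 4 genes, by library, with chronic hypoxia (red) left of normoxia (blue) and black bars for the mean ± SD of 4 libraries; each panel has its own axis. In the ratios of Postn to Tgfb1 and to Ccn2 the hypoxic hearts lie on both sides of the normoxic ones.

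The profile of each gene over the 8 libraries was set beside those of 12655 other genes of at least 1 CPM, using the root mean square difference of centred log2 CPM. Among the 4 genes themselves Tgfb1 and Ccn2 were closest, at 0.30, and Postn and Ccn2 farthest, at 0.91. Genes outside the set lay closer, but they were the nearest of 12655, against the few other members. The difference also grows with the spread of a gene, so it does not tell whether the 4 genes go together. The nearest to Tgfb1 was ENSRNOG00000052113 at 0.056, with 44.8 to 71.3 CPM in hypoxia and 43.6 to 46.6 CPM in normoxia. That gene did not pass the test (edgeR adjusted p = 0.0936). The nearest to Fn1 was ENSRNOG00000049269 at 0.108, which rose by 0.70 on the log2 scale (edgeR adjusted p = 0.00793). Each neighbour was picked for likeness to its gene over these same libraries, so its test adds no separate evidence. Postn had no gene closer than 0.225 and Ccn2 none closer than 0.159. The sources used here give no names for these IDs.

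The fold change varied with gene-model length in this dataset, with longer genes tending to be lower in hypoxia, and Fn1 is a long gene. It falls in the longest of 10 length bins (5214 to 29464 bp), whose 1422 genes had a median log2 fold change of −0.23, with 78 genes (5.49%) called higher and 528 lower. Fn1 stood above 96.7% of that bin, and after removal of the length trend from each library its log2 fold change was 1.07 (edgeR adjusted p = 6.97e-04). Tgfb1, Ccn2 and Postn lie in middle bins with medians of 0.03, −0.01 and −0.05, and with that correction stood at 0.31, 0.38 and 0.80.

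**Figure D5:**
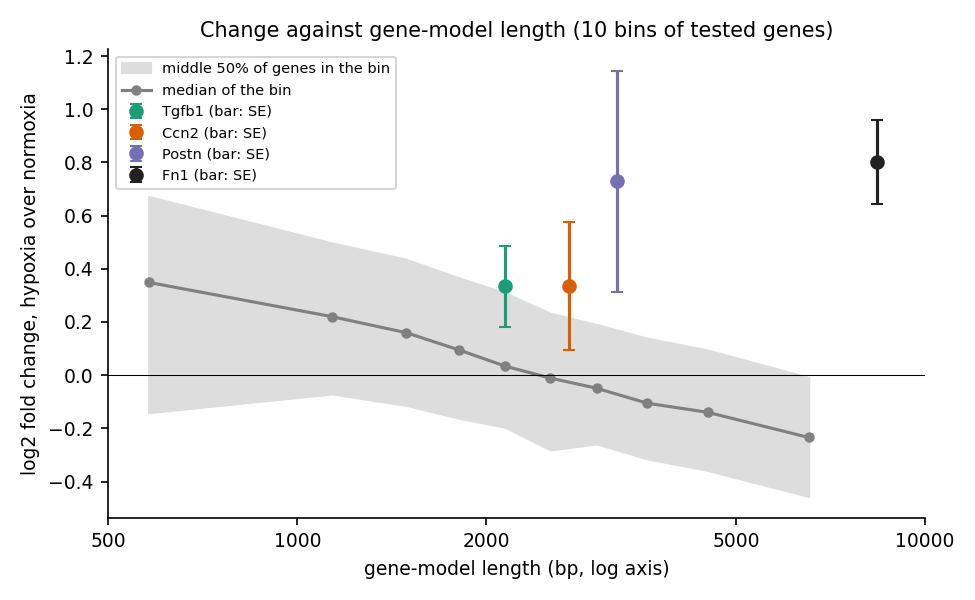
Log2 fold change of hypoxia over normoxia against gene-model length on a log axis. The grey line and band give the median and the middle 50% of the genes in each of 10 length bins, drawn at the bin's median length, and coloured points give the 4 genes with their SE. Fn1 lies at 0.80 where the median of its bin is −0.23.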

How the data were processed

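The authors deposited, for each of 8 libraries, whole-number read counts per gene that were not normalized and FPKM values (counts scaled by gene length and library total). Per the submitters' processing notes, the tools were HISAT2 2.1.0, Bowtie2 2.2.3, HTSeq 0.6.0 and bcl2fastq and the build was rn6; the sources used here state neither their roles nor the annotation or strand setting. RNA was extracted with Trizol and libraries made with a NEBNext Ultra kit, per the labels' protocols. Count, FPKM and library total gave each gene 1 whole length (relative tolerance 0.001, 100% of values above 0), and these lengths were used as gene-model lengths.

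The RefSeq gene table (GRCr8) matched 0 of 21549 IDs. Pathway and marker lists were therefore not used, and names come with the gene set. The members, lists, motifs and tests were chosen with earlier results of these data known. Besides the 4 genes, the rule for named genes took the nearest profile to each by ID, and of these 4 neighbours the 2 with the smallest difference are printed.

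Counts were fitted with edgeR 4.0.16 in R 4.3.3 (filterByExpr, minimum count 10; TMM; quasi-likelihood test on group; Benjamini-Hochberg adjustment over 14214 genes; called under 0.05), after a check on simulated counts. Intervals are 95%. Log2 CPM used a prior count of 2. Alternatives used DESeq2 1.42.0 and limma 3.58.1. Ratios were tested by two-sided exact permutation over 70 assignments with scipy 1.17.1. Replicate numbers were not taken to pair the rats.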

Additional observations from a re-analysis of the deposited data

Results flagged for a closer look

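Tgfb1 in normoxia library 4 stood apart from the other normoxic hearts, at 4.55 log2 CPM and 11.3 FPKM, in a group whose whole range was 23.4 to 25.6 CPM; both measures come from the same counts. They were the 2 that stood apart among 28 groups of 4 libraries examined, where chance marks about 5% of groups. Without that library the log2 fold change of Tgfb1 was 0.30, against 0.33 with it, and neither passed the test (edgeR adjusted p = 0.239 and 0.120).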

How the results depend on the processing

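Fn1 kept its direction and its call in all 24 alternatives, with log2 fold changes of 0.55 to 1.07 and adjusted p of 1.93e-05 to 0.0444, and 0.66 to 0.93 with 1 library left out. Leaving out hypoxia libraries 1 and 2 turned Tgfb1 to −0.00999 and Ccn2 to −0.0309 and gave 1.32 for Postn, now past the threshold. Leaving out hypoxia libraries 3 and 4 turned Postn to −0.31 and gave 0.60 for Tgfb1, now past the threshold. Those pairs were told apart by expression in these same data, so passing here is no test of the exposure. With 1 library left out, Tgfb1 ranged from 0.20 to 0.44 (past the threshold only without hypoxia library 4), Ccn2 from 0.15 to 0.49 and Postn from 0.40 to 0.98, both short of it. No other alternative changed a call or direction of the 4 genes. Library totals alone shifted the median over the whole table by −0.17 on the log2 scale, and gave 0.16 for Tgfb1, 0.16 for Ccn2, 0.55 for Postn and 0.63 for Fn1. Called genes numbered 3315 to 5982 in all alternatives, against 4693. Their split of 2516 higher and 2177 lower became 1426 and 3870 with library totals alone, 1195 and 3704 on log2(FPKM + 1), 1195 and 3688 on log2(FPKM + 0.1) and 1108 and 3548 on log2(FPKM + 1) without a filter. Blocking on the replicate number gave 3841 called genes, and Fn1 stood at 0.78 (edgeR adjusted p = 0.0193). Same-number correlations were −0.0847 to 0.0187, which gave no sign that the numbers pair the rats but cannot exclude it. With 1 library left out, the difference in log2 ratio between the groups changed sign for Postn to Tgfb1 (−0.13 to 0.74), Postn to Ccn2 (−0.25 to 0.74) and Ccn2 to Tgfb1 (−0.18 to 0.17). It ranged from 0.01 to 0.43 for Fn1 to Postn, 0.27 to 0.75 for Fn1 to Tgfb1 and 0.15 to 0.75 for Fn1 to Ccn2. The lists fixed by symbol were not run. The 4 genes had 598 to 5674 counts per library.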
